A study of Arabidopsis thaliana with 6 samples.

Results

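The ammonium transporter (AMT) family was followed in roots of Arabidopsis thaliana through 5 genes chosen by gene ID. They are AMT1;1 (AT4G13510), AMT1;2 (AT1G64780), AMT1;3 (AT3G24300), AMT1;5 (AT3G24290) and AMT2;1 (AT2G38290), 5 of the 29613 genes with listed counts. The files name genes by ID, and the ID is used in turn with the symbol. The study sequenced polyA RNA of roots of wild type, accession Col-0, and of a 35S:NPC48 line, with 3 libraries each, of 9479418 to 23830604 counts. 35S is a strong viral promoter active in most plant cells, and NPC48 is known as a non-protein-coding RNA. The labels name no accession for the line and no number of independent transformants. All plants were untreated, at Boyes stage 1.0, on MS/10 medium. Phosphate was 500 µM, humidity was 33%, days had 16 h of light, and the temperature was 24 °C in the light and 21 °C in the dark. The replicates carry the numbers 1, 2 and 3 and the letters A, B and D in both genotypes, and nothing in the labels says that they were separate cultures, so p-values measure the spread between these libraries only. Both libraries of replicate 2 stood apart from the other 4: the summed level of 8 phosphate starvation genes was 6816 CPM in the wild type one and 6230 CPM in the 35S:NPC48 one, and 155 to 199 CPM elsewhere, although the labels give the same phosphate for all. CPM are counts relative to the library size after TMM scaling, a correction for composition. Results that rest on replicate 2 are given with all libraries and without its wild type or its 35S:NPC48 library, since leaving out both ends the comparison.

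AMT proteins are plasma membrane channels or transporters that work as trimers and carry ammonium into root cells at low outside concentrations. In Arabidopsis roots, AMT1;1, AMT1;3 and AMT1;5 are known from the outer cell layers and root hairs, AMT1;2 from the endodermis and cortex, and AMT2;1 from inner tissues, where it contributes to transport towards the shoot. Their transcription is known to answer to nitrogen supply, and phosphorylation of the cytosolic tail of AMT1 proteins closes the trimer.

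The AMT1 genes each have 1 annotated exon, and lie on chromosomes 4, 1, 3 and 3 in the order given above, while AT2G38290 on chromosome 2 has 5. AT3G24290 (AMT1;5) lies beside AT3G24300 (AMT1;3) on chromosome 3, on the same strand, 2628 bases away with 0 annotated genes between them in the RefSeq annotation of assembly TAIR10.1. Beyond the pair, the nearest annotated genes are AT3G24280 and AT3G24310. The pair is the closest in the family, with 87.9% identical bases over 1489 aligned coding bases, against 75.5% to 79.1% for the other pairs among the 5 genes and AMT1;4. The following coding stretches show how often the pair differs, which bears on whether a short read can be assigned to one of them. Capitals mark the bases at which the genes differ, 13 in the first stretch of 90 bases and 11 in the second, and sequences are RefSeq's, printed 5′ to 3′ in coding direction.
AT3G24300 coding bases 1 to 90: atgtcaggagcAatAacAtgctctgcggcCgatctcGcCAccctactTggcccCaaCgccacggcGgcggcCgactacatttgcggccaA
AT3G24290 coding bases 1 to 90: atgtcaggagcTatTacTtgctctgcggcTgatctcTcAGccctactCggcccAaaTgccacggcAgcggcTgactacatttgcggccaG
AT3G24300 coding bases 748 to 837: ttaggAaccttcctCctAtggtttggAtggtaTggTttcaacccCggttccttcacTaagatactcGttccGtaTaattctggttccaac
AT3G24290 coding bases 745 to 834: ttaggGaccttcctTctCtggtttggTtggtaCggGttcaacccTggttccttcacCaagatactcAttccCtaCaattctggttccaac
The longest run shared by their annotated transcripts was 46 bases, and 0 of the 1893 windows of 50 bases in AT3G24300 occurred in AT3G24290. The read length is not given in the sources used here.

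The counts of the tandem pair lay far apart. In the order of replicates 1, 2 and 3, the wild type libraries held 5128, 2629 and 7789 counts of AT3G24300, and the 35S:NPC48 libraries 2468, 3025 and 4296. AT3G24290, known as a transporter induced in nitrogen-starved roots, had 1 count in wild type replicate 3 and 0 counts in the other 5 libraries. A count of 0 allows a level of up to 0.126 to 0.320 CPM, taking 3 counts as the limit in each library and covering counting error only. AT3G24290 was therefore at or below the limit of detection in both genotypes and did not enter the tests, while the other 4 genes passed the filter on low counts and are among the 19608 genes tested.

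Because one gene of the pair was abundant and its neighbour was near 0, their upstream sequences are shown for comparison. They are the 250 bases before each gene's annotated start in TAIR10.1, on the minus strand, at chr3:8807461-8807710 for AT3G24300 and chr3:8802891-8803140 for AT3G24290. For the latter the annotated start is its start codon. Capitals mark runs of at least 10 bases that occur in both windows.
AT3G24300 upstream: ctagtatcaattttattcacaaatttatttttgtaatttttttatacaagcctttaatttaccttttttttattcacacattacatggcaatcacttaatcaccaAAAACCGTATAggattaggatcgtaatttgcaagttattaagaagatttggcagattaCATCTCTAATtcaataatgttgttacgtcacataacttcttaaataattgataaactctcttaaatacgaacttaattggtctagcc
AT3G24290 upstream: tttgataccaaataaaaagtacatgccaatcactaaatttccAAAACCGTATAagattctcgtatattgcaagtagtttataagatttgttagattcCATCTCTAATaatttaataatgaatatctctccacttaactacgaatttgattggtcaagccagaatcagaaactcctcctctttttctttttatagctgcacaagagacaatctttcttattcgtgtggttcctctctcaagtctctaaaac
Exact runs of this length covered 21 of the 250 bases in each window, and the longest held 11 bases. The windows were not aligned, and shorter or inexact matches were not counted, so these values do not measure how alike the sequences are. Inexact matches are present: tacgaacttaattggtctagcc ends the AT3G24300 window, and the similar tacgaatttgattggtcaagcc lies well before the end of the AT3G24290 window.

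In both genotypes AMT1;1 (AT4G13510), AMT1;2 (AT1G64780) and AMT1;3 (AT3G24300) were expressed at similar levels and AMT2;1 (AT2G38290) at a much lower one. Per kb of annotated exon, wild type held 135 ± 27.8 CPM per kb of AT4G13510, 117 ± 52.4 of AT3G24300, 103 ± 28.7 of AT1G64780 and 12.2 ± 1.16 of AT2G38290 (SD, n = 3). The order was the same in 35S:NPC48, with 125 ± 25.0, 108 ± 28.7, 97.0 ± 15.6 and 11.5 ± 1.43 CPM per kb. The first 3 neighbours in this order differed by less than their SD, whereas AT2G38290 lay below every value of the other 3 genes in each library. The level of AT4G13510 is the least certain, because 98.4% of its 1736 annotated exon bases lie under exons of AT4G13505, annotated as a natural antisense transcript. AT4G13510 held 26475 counts over the 6 libraries and AT4G13505 held 131, and the strand setting of the counting is not given in the sources used here. Unless the counting used strand, reads of the 2 genes cannot be told apart. Among genes whose exons lie wholly under antisense exons in the same annotation, 45 of 379 had at least 1000 counts.

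AMT1;4, the sixth gene of the family and known from pollen, was not one of the 5. It had 1 count in 35S:NPC48 replicate 3 and 0 in the other libraries.

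The overexpression line was compared with wild type to ask which transcripts change with NPC48, and 0 of the 4 tested AMT genes were called, where the test called 0.0102% of all tested genes. Values follow in the order of replicates 1, 2 and 3. The wild type libraries held 186, 236 and 282 CPM of AMT1;1, and the 35S:NPC48 libraries 218, 259 and 172. For AMT1;2 they held 224, 160 and 284 CPM, and the 35S:NPC48 libraries 234, 171 and 224. For AMT1;3 they held 228, 125 and 328 CPM, and the overexpression line 263, 152 and 215. For these 3 genes the 35S:NPC48 library was the higher one in replicates 1 and 2 and the lower one in replicate 3, and the genotypes overlapped. The wild type libraries held 21.5, 25.5 and 25.6 CPM of AMT2;1, and the overexpression line 24.4, 24.5 and 19.6, again with overlap. Over all tested genes, the genotypes did not overlap in 7.76%, with 35S:NPC48 above wild type in 3.94% and below it in 3.82%.

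The log2 fold changes of 35S:NPC48 over wild type were all within 0.12 of 0 in edgeR's quasi-likelihood test, and each Benjamini-Hochberg adjusted p was 1.00. AMT1;1 had -0.12 ± 0.22 (SE), with a 95% interval from -0.64 to 0.41, which is 0.641-fold to 1.33-fold. AMT1;2 had -0.09 ± 0.24, with an interval from -0.66 to 0.48. AMT1;3 had -0.11 ± 0.36, and its interval from -0.96 to 0.73, or 0.515-fold to 1.66-fold, was the widest of the 4. AMT2;1, with the narrowest, had -0.09 ± 0.15 and an interval from -0.44 to 0.27. The 4 genes had a median of -0.10, beside 0.01 for all tested genes. When replicate entered the model as a block, the values lay between -0.11 and -0.04, and 0 of 4 were called, where 0.841% of tested genes were called higher and 0.367% lower, 1.21% together. The widest interval was then that of AMT1;1, from -0.52 to 0.29. Without both libraries of replicate 2 and without the block, the log2 fold changes were -0.27 ± 0.22, -0.16 ± 0.19 and -0.23 ± 0.21 for the AMT1 genes in numerical order and -0.12 ± 0.20 for AMT2;1, and 0 of 4 were called. The sign was not firm, since leaving out wild type replicate 3, the highest library for each of the 4 genes, gave 0.04, 0.12 and 0.24 for the AMT1 genes in numerical order.

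**Figure D1:**
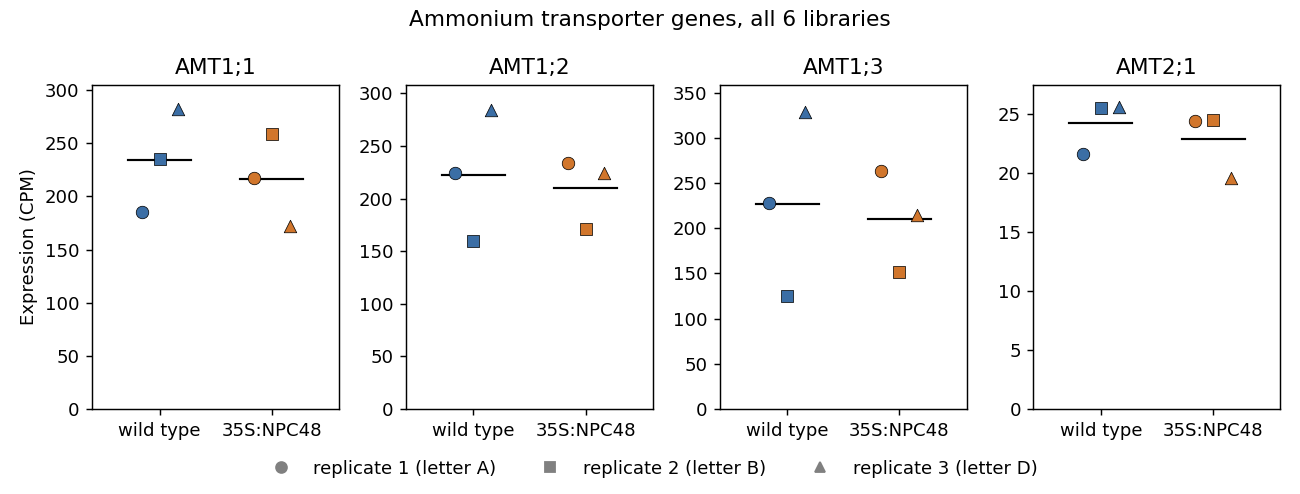
Expression in CPM of the 4 AMT genes that passed the filter, in each of the 6 libraries. Blue symbols are wild type and orange symbols 35S:NPC48, the symbol shape gives the replicate, and bars are means of 3. In AMT1;2 and AMT1;3 the squares of replicate 2 are the lowest in both genotypes, at 160 and 171 CPM and at 125 and 152 CPM.

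Between replicates, which carry the same number in both genotypes, some AMT genes did differ. Replicate 2 held less AMT1;3 than replicates 1 and 3 and less AMT1;2 than replicate 3, while the other 2 genes were called in none of the comparisons of all 6 libraries. Replicate and genotype were terms of one model, so each replicate rests on 2 libraries, 1 of each genotype.

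AMT1;3, a high-affinity transporter of outer root cells, fell by 0.83 ± 0.21 on the log2 scale in replicate 2 against replicate 1 (SE, edgeR adjusted p = 0.0300). Against replicate 3 it fell by 0.97 ± 0.21 (edgeR adjusted p = 0.0165). The 95% intervals of these levels were 0.403-fold to 0.788-fold and 0.365-fold to 0.717-fold. AMT1;2, of the endodermis and cortex, fell by 0.62 ± 0.14 against replicate 3 (edgeR adjusted p = 0.0195). Against replicate 1 its log2 difference was -0.47 ± 0.14, which missed the threshold (edgeR adjusted p = 0.0519). In the F test over both replicate terms these were the 2 of 4 genes called (edgeR adjusted p = 0.0293 for the first and 0.0375 for the second).

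These counts stand beside many calls elsewhere. The F test called 21.0% of all tested genes. Against replicate 1, replicate 2 differed in 19.9% of genes, being lower in 9.20% and higher in 10.8%. Against replicate 3 it differed in 21.7%, being lower in 10.4% and higher in 11.3%. AMT1;3 (AT3G24300) was called lower in both comparisons, as were 6.35% of tested genes, with 7.31% higher in both. In AMT1;2 and AT3G24300 both libraries of replicate 2 lay below the other 4, which held for 21.1% of tested genes, and for 21.5% they lay above.

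For AMT1;1, the log2 difference of replicate 2 was 0.30 ± 0.22 against replicate 1 and 0.14 ± 0.22 against replicate 3 (edgeR adjusted p = 0.373 and 0.688). For AMT2;1 it was 0.13 ± 0.16 and 0.15 ± 0.16 (edgeR adjusted p = 0.619 and 0.543). The intervals of the former, from -0.20 to 0.79 and from -0.36 to 0.64, did not include the falls estimated for AMT1;3, but the difference between the genes was not itself tested. Between replicates 3 and 1 the 4 genes had log2 differences from -0.02 to 0.16, and 0 of 4 were called. That comparison called 0 of 19608 genes in edgeR, with 2659 at an unadjusted p under 0.05, and 210 in DESeq2.

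These calls depended on single libraries. Without wild type replicate 2, the edgeR adjusted p of AMT1;3 (AT3G24300) was 0.160 against replicate 1 and 0.0854 against replicate 3, and that of AMT1;2 (AT1G64780) against replicate 3 was 0.247. Without 35S:NPC48 replicate 2 they were 0.0540 and 0.105 for the first and the last of these, and AT3G24300 against replicate 3 kept its call. Without 35S:NPC48 replicate 1, AT3G24300 against replicate 1 was not called (edgeR adjusted p = 0.164). Over all 6 omissions its log2 differences lay between -1.38 and -0.54 and those of AT1G64780 between -0.83 and -0.35.

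Replicate 3 was the replicate in which the genotypes lay farthest apart in AMT1;1 (AT4G13510), with 282 CPM in wild type against 172. The log2 difference of AT4G13510 in replicate 2 against replicate 3 was 0.59 without wild type replicate 3 (edgeR adjusted p = 0.000263) and -0.29 without 35S:NPC48 replicate 3 (0.0433). Without the latter library, replicate 3 was higher than replicate 1 by 0.57, 0.34 and 0.53 on the log2 scale in the AMT1 genes in numerical order. These fits leave replicate 3 with 1 library and so hold no measure of the spread within it.

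**Figure D2:**
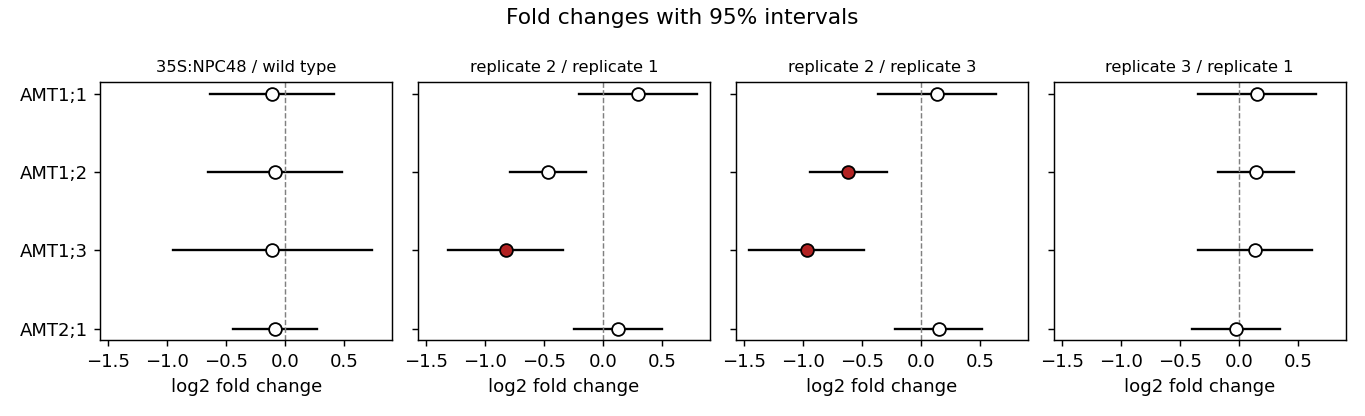
Log2 fold changes of the 4 tested AMT genes (horizontal axis) in the genotype comparison and the 3 comparisons between replicates. Lines are 95% intervals, and filled symbols passed an adjusted p of 0.05 in edgeR. The filled symbols are AMT1;3 at -0.83 and -0.97 and AMT1;2 at -0.62, all in replicate 2.

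The make-up of the family shifted in replicate 2 in the same way in both genotypes. AMT1;1 (AT4G13510) held 43.2% of all AMT counts in replicate 2 of wild type and 42.7% in that of 35S:NPC48, against 27.3% to 30.7% in the other 4 libraries. AMT1;3 (AT3G24300) held 22.8% and 25.0% in replicate 2, against 34.1% to 35.7% elsewhere. AMT1;2 held 29.3% and 28.2%, against 30.9% to 35.6%. AMT2;1 held 4.67% and 4.04%, against 2.78% to 3.30%. The ratio of AT3G24300 to AT4G13510 counts was 0.529 and 0.586 in replicate 2 and 1.16 to 1.25 in the other libraries. Within a library such a ratio does not depend on depth or scaling, and it shows unequal change, not which gene changed. Summed over the family, the wild type libraries held 660, 546 and 920 CPM in the order of replicates, and the 35S:NPC48 libraries 739, 606 and 631. Replicate 2 was the lowest of the 3 in each genotype, by little in 35S:NPC48.

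**Figure D3:**
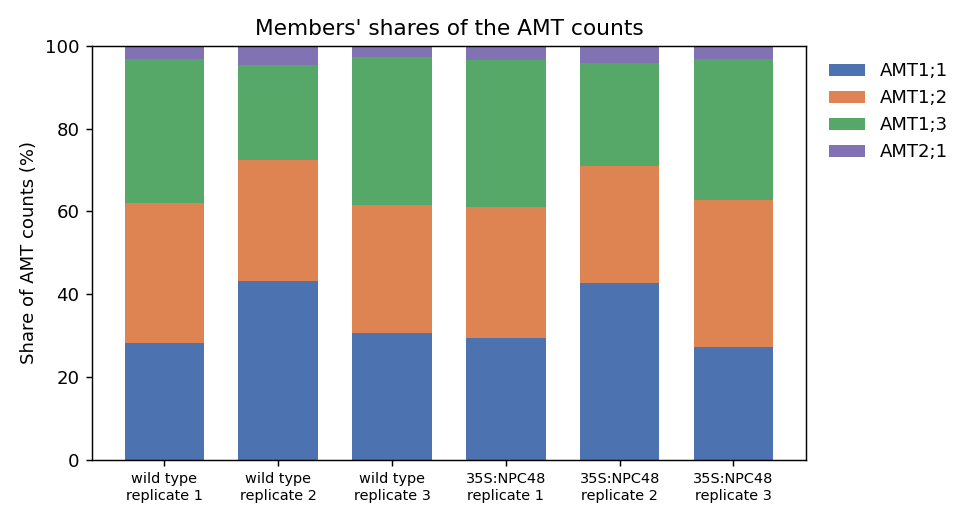
Share of each gene in the AMT counts of each library, in percent, as stacked bars. AT3G24290 is too low to be seen. The part of AMT1;1 is 43.2% and 42.7% in the 2 libraries of replicate 2 and at most 30.7% in the others.

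Ordered by level, the 6 libraries fell into 2 patterns. AMT1;2 (AT1G64780) and AMT1;3 (AT3G24300) were lowest in wild type replicate 2, then in 35S:NPC48 replicate 2, and highest in wild type replicate 3. AMT1;1 (AT4G13510) and AMT2;1 (AT2G38290) were lowest in 35S:NPC48 replicate 3, then in wild type replicate 1, and again highest in wild type replicate 3. Likeness to other genes was measured as Pearson's r of log2 CPM over the 6 libraries, which describes few points, 2 of them the replicate 2 libraries that stand apart. Over the 4 libraries without these, r of the 20 pairs named here lay between 0.956 and 0.9995. The pairs were picked by r over all 6 libraries, these 4 among them, so the choice itself favours high values. The range is therefore no separate test of likeness. The genes most like AT3G24300 were MEE59 (r = 0.998), AT1G23710 (0.997), STOP1 (0.996), AT1G60420 (0.996) and AT5G45500 (0.995). Those most like AT1G64780 were AT5G38210 (0.998), AT5G45500 (0.997), WRKY27, AT5G58620 and AT1G67900 (0.994). Of 18709 genes compared, 230 reached 0.95 for AT3G24300 and 272 for AT1G64780. The other pattern was rarer, with 23 genes at 0.95 or more for AT4G13510, led by AT4G24310 and AT3G10330 (0.992 each), AT1G11700, IDH-V and BOR4. For AT2G38290 there were 13, led by ATS9 (0.974), DAR7, AT4G27680, AT4G05220 and AT4G23680.

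Genes that act on or around AMT transport moved with replicate, in both directions, and none was called between genotypes without the block. The list of AMT regulation held 11 genes, all tested, of which 2 were called higher and 6 lower in replicate 2 against replicate 1, and 2 higher and 5 lower against replicate 3. Its median log2 differences were -0.38 and -0.35, beside -0.00336 and -0.0161 for all tested genes. Of all tested genes, 10.8% were called higher and 9.20% lower against replicate 1, and 11.3% and 10.4% against replicate 3. These shares also stand beside the counts of the lists below. CBL1, a calcium sensor that with the kinase CIPK23 is known to inhibit AMT1;1 and AMT1;2 by phosphorylation, had 39.0 CPM in 35S:NPC48 replicate 2 and 53.0 CPM in wild type replicate 2. The other 4 libraries held 14.9 to 22.4 CPM, and CBL1 rose by 1.53 ± 0.17 and 1.13 ± 0.17 on the log2 scale (edgeR adjusted p = 0.00115 and 0.00402 against replicates 1 and 3). CIPK23 itself, named after its values were seen, fell by 0.78 ± 0.14 and 0.88 ± 0.14 (edgeR adjusted p = 0.00847 and 0.00530).

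NRT1.1, the nitrate transporter and sensor that is a further target of CIPK23, had 720 and 561 CPM in the replicate 2 libraries of wild type and 35S:NPC48, against 1432 to 2220 CPM in the others. The fitted level in replicate 2 was 2.63-fold lower than in replicate 1 and 2.82-fold lower than in replicate 3 (edgeR adjusted p = 0.00152 and 0.00124). LBD39, which with LBD37 is known to repress nitrogen-responsive genes, had 47.1 and 44.1 CPM in replicate 2 and 101 to 134 CPM elsewhere (edgeR adjusted p = 0.000931 and 0.000523). LBD37 fell by 0.84 ± 0.12 against replicate 1 and dropped by 0.87 ± 0.12 against replicate 3. Without wild type replicate 2, 1 gene of the list was called higher and 4 lower in each comparison. Without 35S:NPC48 replicate 2 it was 1 and 2 against replicate 1 and 1 and 3 against replicate 3. CBL1, NRT1.1 and LBD39 were called in all of these fits, and CIPK23 was not called without 35S:NPC48 replicate 2 (edgeR adjusted p = 0.165 and 0.116), nor LBD37 against replicate 1 (0.0504).

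Of 15 ammonium assimilation genes 13 were tested. Against replicate 1, 2 were called higher and 3 lower in replicate 2, and against replicate 3 it was 5 and 3, with medians of -0.33 and -0.03. The shares of all tested genes were 10.8% and 9.20%, and 11.3% and 10.4%. GLN1;2, a cytosolic glutamine synthetase of roots, had 1752 and 1748 CPM in replicate 2 of wild type and 35S:NPC48, and 2774 to 3694 CPM elsewhere. It fell by 0.71 ± 0.17 against replicate 1 and fell by 0.89 ± 0.17 against replicate 3 (edgeR adjusted p = 0.0231 and 0.0101). GLT1, the NADH-dependent glutamate synthase, fell by 0.94 ± 0.16 and dropped by 0.73 ± 0.16.

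Other assimilation genes rose. GLN1;1, another cytosolic glutamine synthetase, rose by 0.58 and 0.53 (edgeR adjusted p = 0.0174 and 0.0218). Of the glutamate dehydrogenase genes, GDH2 rose by 0.67 ± 0.12 and 0.69 ± 0.12, while GDH1 fell by 0.87 ± 0.11 and dropped by 0.61 ± 0.11. ASN2, an asparagine synthetase, rose by 0.69 ± 0.13 against replicate 3 (edgeR adjusted p = 0.00877), and had 0.33 ± 0.13 against replicate 1 (0.103). Most of the calls among assimilation genes were lost when either library of replicate 2 was left out. Such fits leave replicate 2 with 1 library and 1 residual degree of freedom, so a lost call does not show a lost difference. Without the wild type library the medians were -0.29 against replicate 1 and -0.13 against replicate 3. Without the 35S:NPC48 library they were -0.37 and 0.06.

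The list of other proteins that pass ammonia or urea, or act on urea, held 7 tested genes, of which 4 were called lower in replicate 2 against replicate 1 and 5 against replicate 3, with 0 called higher. Its medians were -0.52 and -0.85. Of all tested genes, 9.20% and 10.4% were called lower. TIP2;2, an aquaporin of the vacuolar membrane, had log2 differences of -1.53 ± 0.16 and -1.78 ± 0.16. For TIP2;3, an aquaporin known to pass ammonia, they were -1.34 ± 0.15 and -1.64 ± 0.15. DUR3, the high-affinity urea transporter of roots, had 17.4 and 29.0 CPM in replicate 2 of wild type and 35S:NPC48, and 44.6 to 75.1 CPM elsewhere. Its log2 differences were -1.44 ± 0.12 and -1.22 ± 0.12 (edgeR adjusted p = 0.000265 and 0.000640). URE, the urease gene, had -0.52 ± 0.14 and -0.48 ± 0.14 (edgeR adjusted p = 0.0375 and 0.0424), and TIP1;1 fell by 0.85 ± 0.18 against replicate 3 (0.0156). Against replicate 1 the latter had -0.38 ± 0.18, which was not called (edgeR adjusted p = 0.182). Without either library of replicate 2, 3 genes of the list were called lower in each comparison and 0 higher. These were TIP2;2, TIP2;3 and DUR3, while URE and TIP1;1 were not called, with edgeR adjusted p of at least 0.148.

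Of 5 genes of high-affinity nitrate uptake, 2 were tested. NRT3.1, the partner protein of NRT2 transporters, fell by 0.69 ± 0.18 against replicate 3 (edgeR adjusted p = 0.0326), and had -0.48 ± 0.18 against replicate 1 (0.102). Against replicate 3 it was not called without wild type replicate 2 (edgeR adjusted p = 0.294). NRT2.1, the transporter itself, stayed between 0.213 and 3.37 CPM in all libraries. It was not called with all libraries (edgeR adjusted p = 0.108 and 0.411), and was called higher without wild type replicate 2. Those fits rest on 1 library of replicate 2 and on few counts. The 35S:NPC48 libraries held 2, 45 and 9 counts of NRT2.1 in the order of replicates.

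**Figure D4:**
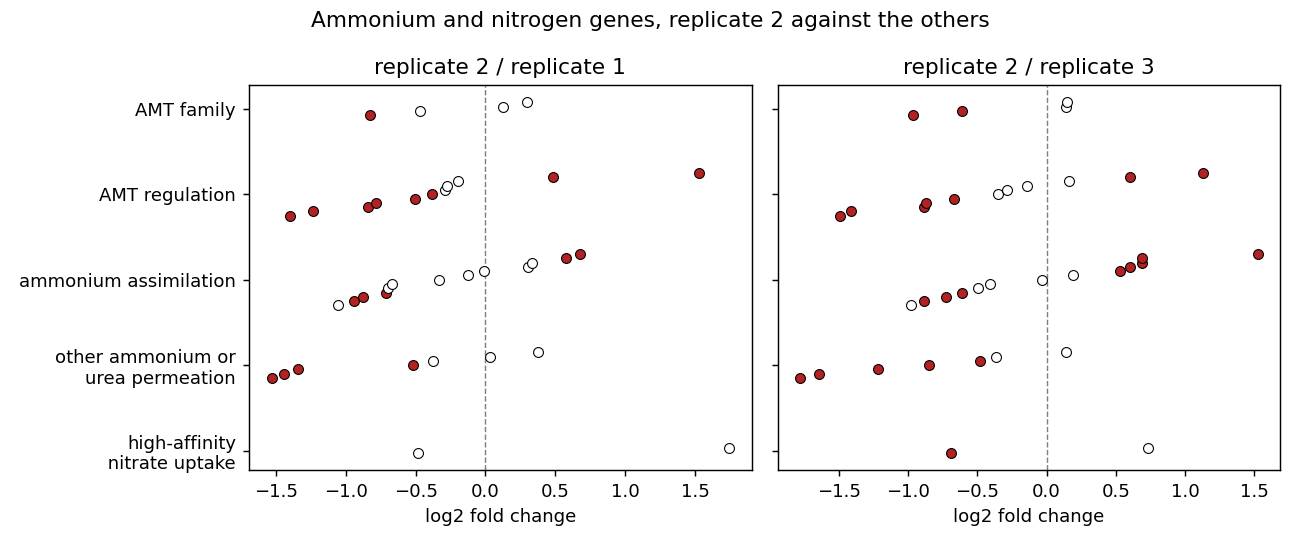
Log2 fold changes of replicate 2 over replicate 1 (left) and over replicate 3 (right) for the tested genes of 5 lists, 1 symbol per gene, spread vertically for sight. Filled symbols passed an adjusted p of 0.05 in edgeR. The list of other ammonium or urea permeation has filled symbols on the lower side only, from -1.78 to -0.48.

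Between genotypes 0 genes of these lists were called without the block. Mean levels of abundant members are given for wild type and then 35S:NPC48 (SD, n = 3). NRT1.1 had 1544 ± 761 and 1210 ± 572 CPM, and CIPK23 had 278 ± 69.6 and 268 ± 96.5 CPM. GLN1;2 had 2740 ± 971 and 2509 ± 663 CPM, and GLT1 had 1775 ± 526 and 1343 ± 468 CPM. TIP1;1 had 2330 ± 900 and 2331 ± 550 CPM, and TIP1;2 had 2270 ± 452 and 2482 ± 306 CPM. These differences were within the SD, which does not use the pairing of replicates. NRT1.1 and GLT1 were lower in 35S:NPC48 in 3 of 3 replicates, and TIP1;2 was higher in 3 of 3. With the replicate block their log2 differences were -0.35 ± 0.14, -0.42 ± 0.13 and 0.14 ± 0.12, none of them called (edgeR adjusted p = 0.396, 0.254 and 0.732). GLU2, of the assimilation list, had 367 ± 8.09 and 291 ± 32.2 CPM. Its 35S:NPC48 libraries all lay below those of wild type, as in 3.82% of all tested genes. With the block GLU2 had -0.34 ± 0.11 and was not called (edgeR adjusted p = 0.264). NRT3.1 had 89.4 ± 32.3 and 76.2 ± 9.69 CPM. NRT2.1 had 1.47, 2.65 and 3.37 CPM in the wild type libraries against 0.213, 2.26 and 0.450 CPM, and the genotypes overlapped. With the replicate block 1 gene of the 4 nitrogen lists was called. DUR3, at 37.2 ± 17.4 CPM in wild type, reached 55.2 ± 23.7 CPM (log2 difference 0.59 ± 0.10, edgeR adjusted p = 0.0311), and was higher in 35S:NPC48 in 3 of 3 replicates. The share of all tested genes with the same direction in 3 of 3 replicates is not given here.

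Markers of root cell types moved with replicate 2 as well. The summed level of 8 root hair genes was 625 and 498 CPM in the replicate 2 libraries of wild type and 35S:NPC48, against 247 to 369 CPM in the other 4. Of these genes 7 were called higher in replicate 2 against replicate 1 and 6 against replicate 3, as were 10.8% and 11.3% of all tested genes. Without the wild type library of replicate 2 it was 6 and 2, and without the 35S:NPC48 library 5 and 3. The summed level of 6 stele genes was 1027 and 1159 CPM in replicate 2 and 1988 to 3196 CPM elsewhere, of which NRT1.5 and PHO1 held the largest parts. Against replicate 1, 0 of the 6 were called higher and 2 lower, beside 10.8% and 9.20% of all tested genes. Their median log2 difference was -0.17. Against replicate 3, SUC2 was called higher by 0.92 (edgeR adjusted p = 0.00677) and NRT1.5 lower, with a median of -0.04, and in both comparisons 3 of the 6 were above 0 and 3 below. For 8 endodermis genes the sum was 775 and 854 CPM in replicate 2 and 753 to 1341 CPM elsewhere. Of these genes 2 were called lower against replicate 1 and 6 against replicate 3, as were 9.20% and 10.4% of all tested genes. Fewer of them were called without either library of replicate 2. Of the markers of these 3 lists, 0 were at 0 in any library. Of 10 shoot and chloroplast genes the sum ranged from 50.2 to 128 CPM, highest in 35S:NPC48 replicate 1 (128) and wild type replicate 3 (118). Their part in the AMT values was not tested. In bulk roots, fewer cells of a type and less RNA per cell cannot be told apart.

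Of the phosphate starvation genes, 7 of 7 tested were called higher in replicate 2 in both comparisons, with medians of 6.20 and 5.41 on the log2 scale, and 7 of 7 also without either library of replicate 2. Between genotypes 0 of the 7 were called. AT4, a target-mimic RNA, had 807 ± 1322 and 822 ± 1347 CPM, and SQD2, a sulfolipid synthase, 477 ± 721 and 401 ± 585 CPM, with SD set by replicate 2. The binding motif of the phosphate starvation regulator PHR1, GNATATNC, reads the same on both strands and was searched in the 250 bases before each gene's annotated start. It was found before 0 of the 5 AMT genes and before 5.46% of 27443 protein-coding genes. It was found before 2 of 8 phosphate starvation genes, 2 of 11 AMT regulation genes (CBL1 and CIPK15), 3 of 15 assimilation genes, 1 of 7 permeation genes and 1 of 5 nitrate uptake genes. A window without it says only that these letters are not there.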

How the data were processed

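Per the submitters' processing notes, reads were processed with Trimmomatic 0.36, STAR 2.5.2b and featureCounts of Subread 1.6.5 on genome build TAIR10. For the annotation release, strand setting and multiply mapped reads, nothing is given in the sources used here. What the authors deposited are counts of reads per gene, not normalized. In the order of replicates, the wild type libraries summed to 21232247, 21055370 and 23830604 counts, and the 35S:NPC48 libraries to 9479418, 20789863 and 20120659. The shallower 35S:NPC48 replicate 1 has the larger counting error. Within-genotype pairs differed by more than sampling noise (chi-square per degree of freedom 16.9 to 99.8), so no library was treated as a copy.

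From the counts, R 4.3.3 with edgeR 4.0.16 kept 19608 genes (filterByExpr, minimum count 10, minimum total 15) and scaled them by TMM. Quasi-likelihood F tests were fitted over all genes, with Benjamini-Hochberg adjusted p under 0.05, once with genotype alone and once with genotype and replicate. SE come from the F statistic. List calls without each replicate 2 library and likeness without both were added after seeing the data. DESeq2 1.42.0 and limma-voom (limma 3.58.1) were alternatives, and the fits were tested on simulated counts. Same-numbered libraries deviated together (correlations 0.528, 0.830 and 0.368), so the numbers were read as pairs, from the labels and this check. This check speaks mainly for replicate 2, since wild type replicate 1 correlated at 0.385 with 35S:NPC48 replicate 3.

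The genes, the lists and the replicate comparison were chosen with earlier results of these data known. Besides the 5 members, the genes named are up to 4 called members of each list per comparison, by smallest p, the 2 most abundant of lists with no call, and the 5 tested genes (mean of at least 1 CPM) most like each member. The annotated neighbours of the tandem pair are named too. CIPK23 in the comparisons between replicates, CIPK15, GLU2, NRT1.5, PHO1 and SUC2 fall outside this rule and were chosen after their values were seen. Gene lengths, coding and upstream sequences were taken from RefSeq's TAIR10.1 by gene ID, where 28494 of 29613 IDs matched. Its coordinates are those of TAIR10.1 and were not combined with coordinates of the deposited files, which hold none. Coding pairs were aligned with Biopython 1.88.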

Additional observations from a re-analysis of the deposited data

How the results depend on the processing

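In the genotype comparison 0 AMT genes were called under any alternative run, the replicate block among them, which changed the call of no AMT gene. Leaving out 1 library at a time, the log2 fold changes ranged from -0.28 to 0.0354 for AMT1;1, from -0.28 to 0.12 for AMT1;2, from -0.41 to 0.24 for AMT1;3 and from -0.16 to 0.00961 for AMT2;1. Without wild type replicate 3 and 35S:NPC48 replicate 1 together they were 0.0271, 0.0358 and 0.0491 for the AMT1 genes in numerical order. Genes called between genotypes numbered 2, and 237 with the replicate block, 153 in DESeq2, 0 in limma-voom, 46 without both replicate 2 libraries, 118 with the replicate block and without them, 0 without wild type replicate 3 and 35S:NPC48 replicate 1 together, and 0 to 2 without 1 library. The cause of these differences was not tested.

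Against replicate 1, replicate 2 had 1 AMT gene called, 2 with no filter on low counts, in DESeq2 and in limma-voom, and 0 to 3 without 1 library. AMT1;2 was the gene added in the first 3 settings. Against replicate 3 it was 2, and 0 to 3 without 1 library. Between replicates 3 and 1 it was 0, and 0 to 3. In the F test it was 2, and 0 to 3. Such fits leave 1 residual degree of freedom and assume that a lone library varies like the others. Over all genes the counts ranged from 1207 to 7967 against replicate 1, 1115 to 6604 against replicate 3, 0 to 2145 between replicates 3 and 1 (210 in DESeq2 with all libraries) and 993 to 9157 in the F test.

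Signs turned without 1 library for values that are uncalled with all libraries. Against replicate 1, AMT2;1 ranged from -0.0947 to 0.32, and against replicate 3 from -0.0681 to 0.36, with AMT1;1 from -0.29 to 0.59. Between replicates 3 and 1 the ranges were -0.31 to 0.57 for AMT1;1, -0.0688 to 0.34 for AMT1;2, -0.31 to 0.53 for AMT1;3 and -0.25 to 0.18 for AMT2;1, which was 0.0108 in limma-voom. The mean share of AMT1;2 in the family moved from 31.6% of counts to 28.2% per kb of exon.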
